A study of Rattus norvegicus with 10 samples.

Results

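The mRNA of 7 subunits of the nicotinic acetylcholine receptor was described in the hippocampus of young male Wistar rats. The members were Chrna5, Chrna3, Chrnb4, Chrna4, Chrna7, Chrnb2 and Chrnb3. They were chosen by name, as every probe set annotated with exactly 1 of these symbols, which gave 7 probe sets, 1 for each gene, of 31042 probe sets and of 14217 genes named by 1 symbol. Chrna5, Chrna3 and Chrnb4 lie next to each other on chromosome 8 of the rat assembly GRCr8, between Psma4 and Ube2q2, and are called the linked subunits. The rats were 3 weeks old at the start, were first acclimated on powdered feed, and then took solid chow (C-group, 5 rats) or the powdered feed (P-group, 5 rats) for 8 days. Feed and water were freely available in both groups, and the labels give an age of 4 weeks for all 10 rats. The question of the comparison was whether feed that has to be chewed changes hippocampal mRNA at weaning. Rats are written here as C1 to C5 and P1 to P5, after the numbers in their labels.

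A nicotinic receptor is a cation channel made of 5 subunits around a pore that acetylcholine opens. The alpha7 subunit can form a receptor on its own, alpha4 with beta2 makes the most common receptor of the brain, and alpha3 with beta4, often with alpha5 as an accessory subunit, is known from autonomic ganglia, the medial habenula and the pineal gland. In the hippocampus, the alpha7 receptor and receptors that contain alpha4 and beta2 sit mainly on interneurons and on nerve endings, and cholinergic fibers reach them from the septum.

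Hippocampal RNA was hybridized to Affymetrix rat genome arrays, 1 array per rat, and the deposited values are log2 expression values, so that a difference of 1 is a 2-fold change in signal. The median of an array was 7.0 to 7.02. Markers of hippocampal neurons (10 genes listed, 10 measured, 9 of them variable) had a mean of 9.04 to 9.32 in the C-group and 9.10 to 9.24 in the P-group. Rat P2 stood apart by genes of the pineal gland, which lies near the hippocampus: all 8 variable genes of that list were highest in P2, and their mean was 8.49 there against 6.08 to 6.20 in the 9 other rats. The list holds Pde6g, the gamma subunit of the photoreceptor phosphodiesterase. Its other 3 measured genes (Rbp3, Aanat and Lhx4) hardly varied between rats. Each was also highest in P2, but by 0.0004723 log2 units above the next rat at most (Lhx4). Genes of the choroid plexus also differed between dissections, with a list mean of 6.88 to 9.46 in the C-group and 6.71 to 9.01 in the P-group. In such bulk tissue, fewer cells of a type and less RNA per cell cannot be told apart.

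Among the 7 members, only the linked subunits Chrna5 and Chrnb4 had values that varied measurably between rats. Their SDs over the 10 rats were 0.34 for Chrna5 and 0.26 for Chrnb4. Chrna3, which lies between them, had an SD of 0.0002033. Chrna4, Chrna7, Chrnb2 and Chrnb3 had SDs between 0.0001278 and 0.000303. Thus 2 of the 3 linked subunits and 0 of the 4 others exceeded an SD of 0.01, against 9.36% of all probe sets. The normalization used, qFARMS, leaves a probe set almost constant unless its probes vary together from array to array. A near-constant value therefore does not show that the mRNA was equal in all rats, and whether these 5 subunits differed between rats could not be measured. The other 9 nicotinic subunit genes, which mostly belong to muscle, sensory cells or a few brain nuclei, were near-constant as well (0 of 9 genes, on 10 probe sets). Mean values of the members lay between 5.78 (Chrnb3) and 6.81 (Chrna7), below the median of every array. Probe sets differ in how brightly they bind, so the levels of the subunits are not compared with each other.

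**Figure D1:**
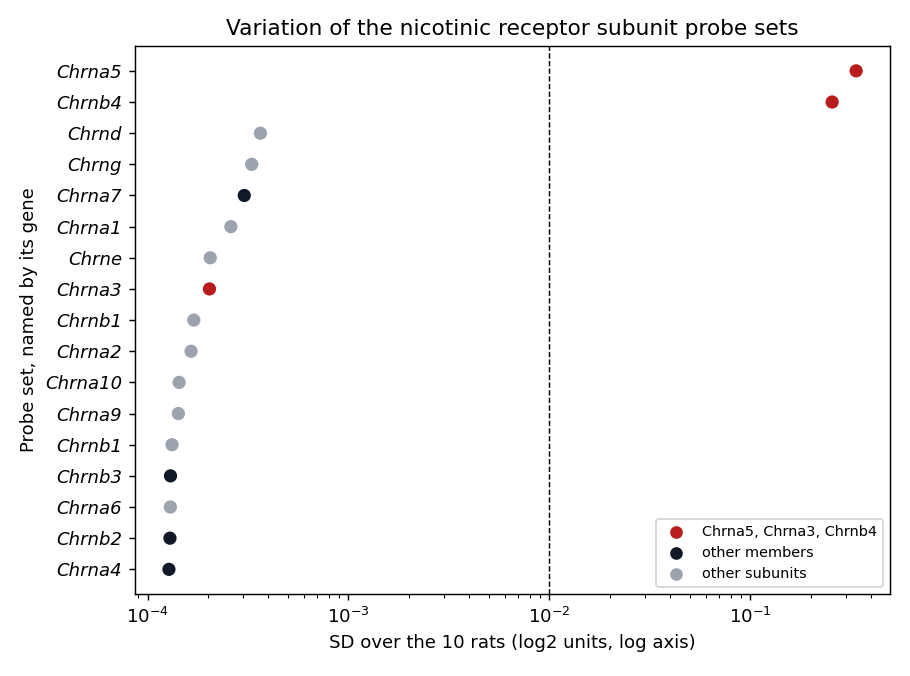
SD over the 10 rats, in log2 units on a log axis, of each of the 17 probe sets of nicotinic subunit genes (red, linked subunits; black, the other members; grey, subunits that are no members). The dashed line marks 0.01, and only Chrna5 and Chrnb4 lie to its right.

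Before their RefSeq start sites, the linked subunits held GC boxes, as did every other member with a promoter window. GC boxes are the letters GGGCGG, read on the other strand as CCGCCC, that factors of the Sp1 family can bind. RefSeq promoter windows of GRCr8 held 6 of the 7 members, and the 250 bases before the start site were searched on both strands. A GC box was found in 6 of these 6 members, against 30.5% of 33469 windows of that length. The start site used can lie inside the annotated gene, since a gene can have several: all 250 bases of the Chrna4 window, 210 of the Chrnb4 window and 52 of the Chrna7 window lay inside their own gene, and 0 in Chrna5, Chrna3 and Chrnb2. The windows of Chrna5 and Chrna3 are shown because these neighbors have very different measured variation (0.34 against 0.0002033) and yet the same kind of start region. The window of Chrna5 lies at chr8:64265629-64265878 on the plus strand, has 70.4% G and C and holds 4 GC boxes. That of Chrna3 lies at chr8:64311252-64311501 on the minus strand, has 65.2% G and C and holds 2. The median of all windows was 51.2%. Both are written 5′ to 3′, and capitals mark the GC boxes.
Chrna5: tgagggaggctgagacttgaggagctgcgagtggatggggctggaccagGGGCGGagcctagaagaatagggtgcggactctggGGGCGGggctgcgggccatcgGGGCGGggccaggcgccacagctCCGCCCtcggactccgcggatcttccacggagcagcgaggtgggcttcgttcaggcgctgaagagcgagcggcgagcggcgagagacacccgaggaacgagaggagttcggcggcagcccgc
Chrna3: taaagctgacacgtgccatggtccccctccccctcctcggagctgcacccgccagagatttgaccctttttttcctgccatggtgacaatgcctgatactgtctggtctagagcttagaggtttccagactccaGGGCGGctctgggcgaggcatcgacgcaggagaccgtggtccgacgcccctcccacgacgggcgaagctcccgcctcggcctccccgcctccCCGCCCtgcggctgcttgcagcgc
The window of Chrnb4 (chr8:64333110-64333359, minus strand) had 62% G and C and 1 GC box, and because most of it lies inside the annotated gene it is not printed. Chrna4 held 3 GC boxes, and Chrna7 and Chrnb2 1 each. The letters TAATCC, read on the other strand as GGATTA, the core bound by Crx and Otx factors of the pineal gland and the retina, were in 0 of the 6 windows, against 6.34% of all. A match is a description of letters and not a binding site.

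Chrna5, the accessory subunit, was higher on average in the C-group, but not beyond the spread between rats. In the C-group its values were 6.69 in C1, 6.999 in C2, 7.10 in C3, 7.28 in C4 and 6.76 in C5. In the P-group they were 6.83 in P1, 6.72 in P2, 6.84 in P3, 6.72 in P4 and 6.001 in P5. C2, C3 and C4 lay above every P-group rat, C1 and C5 lay within the P-group's range, and P5 lay 0.69 below the next lowest rat. The groups thus overlapped, as they did for all 7 members, and 0.445% of all probe sets had groups that did not. The C-group averaged 6.97 ± 0.24 (SD, n = 5), and the P-group averaged 6.62 ± 0.35 (SD, n = 5). The difference, C-group minus P-group, was 0.34 log2 units (SE 0.18, 95% interval −0.08 to 0.77). The exact two-sided permutation test over the rats gave p = 0.09524, and limma gave an adjusted p of 0.9266.

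Rank products, the ranking method that the study names, placed Chrna5 among the probe sets higher in the C-group (FDR = 0.006607). It was the 1 member called in that direction, against 2.0% of all probe sets, and 0 members were called lower, against 0.416%. The method orders probe sets by how large their differences are, whatever the spread between rats. When it was run over the 2904 probe sets with an SD above 0.01 alone, which was chosen after the data were seen, the FDR of Chrna5 was 0.5563. Limma called 0 members and 0% of all probe sets, with 915 probe sets at an unadjusted p below 0.05. The median difference of the 7 members was 1.206e-05, beside 2.795e-05 over all probe sets. As 5 of the 7 members and most probe sets were near-constant, both medians had to lie near 0. Chrna5 was called in 9 of the 10 sets that leave out 1 rat each. The call was lost without C4, where the difference was 0.27 and the FDR 0.05573, and the difference was smallest without P5, at 0.19. In the C-group, C4 had the lowest choroid plexus mean (6.88) with the highest Chrna5, and C1 the highest choroid plexus mean (9.46) with the lowest Chrna5. In the P-group the order was mixed. P3 had the highest choroid plexus mean (9.01) and also the highest Chrna5 (6.84). P5 had a choroid plexus mean of 8.08 with the lowest Chrna5 (6.001), and P1 the lowest mean (6.71) with a Chrna5 of 6.83. The part of the dissection in the difference of Chrna5 was not tested.

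Chrnb4, which supplies the beta subunit of the receptor with alpha3, was set apart by 1 rat. In the C-group its values were 6.09 in C1, 6.32 in C2, 6.23 in C3, 6.20 in C4 and 6.15 in C5. In the P-group they were 6.27 in P1, 6.96 in P2, 6.23 in P3, 6.02 in P4 and 6.30 in P5. P2 lay 0.64 above the next rat, the other 9 rats lay within a narrow band, and the groups overlapped. The C-group averaged 6.20 ± 0.09 (SD, n = 5) and the P-group 6.36 ± 0.35 (SD, n = 5), which differ by −0.16 (SE 0.16, 95% interval −0.52 to 0.20). It passed no test (exact permutation p = 0.4603, limma adjusted p = 0.9266, rank products FDR = 0.1313 for lower). Without P2 the difference was −0.01, and P2 is the rat in which the pineal genes were high.

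**Figure D2:**
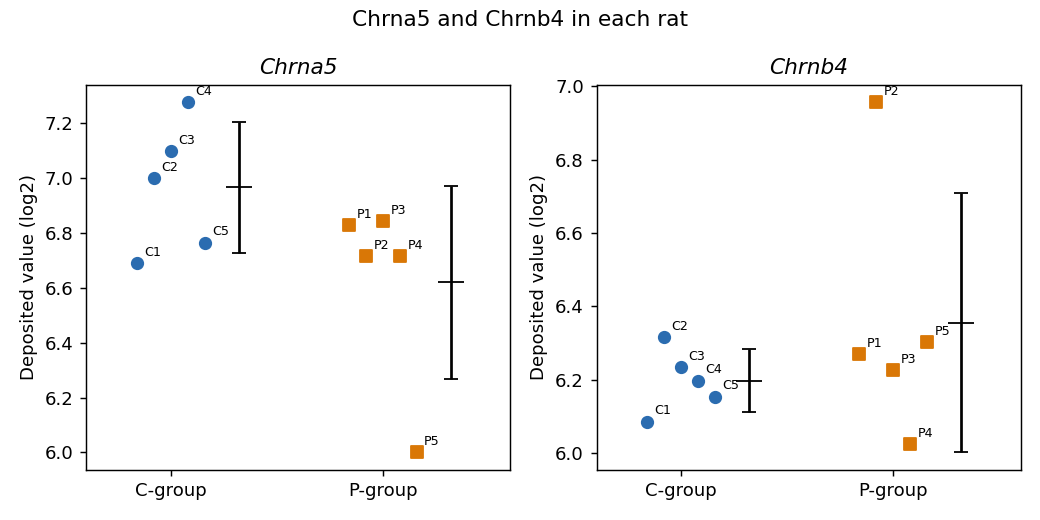
Deposited log2 values of Chrna5 and Chrnb4 in each rat (blue circles, C-group; orange squares, P-group), with the mean and SD of each group as horizontal lines and bars. P5 is far below the other rats for Chrna5, and P2 is far above them for Chrnb4.

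**Figure D3:**
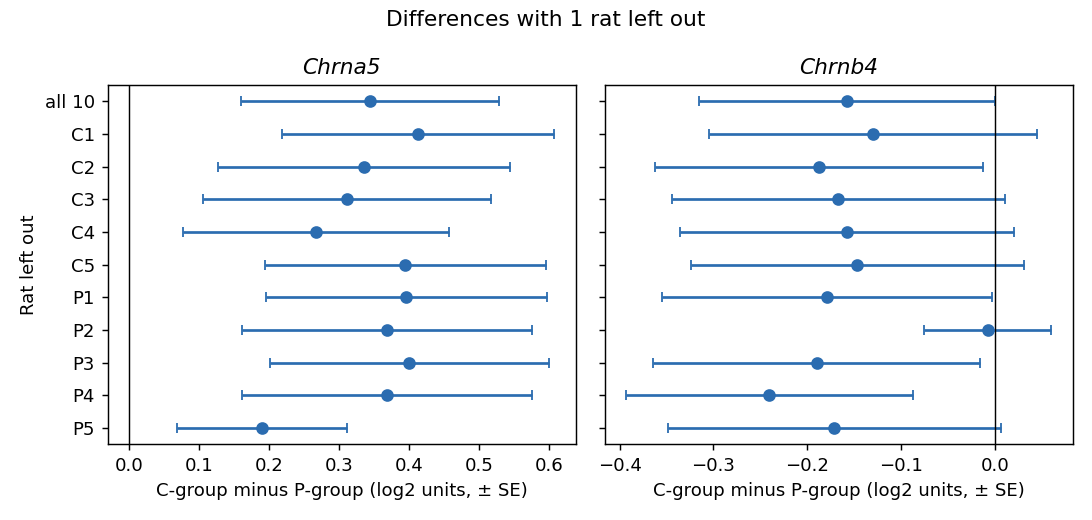
Difference of Chrna5 and Chrnb4, C-group minus P-group in log2 units (points) with its SE (bars), with all 10 rats and with 1 rat left out at a time. Without P5 the difference of Chrna5 is 0.19, and without P2 that of Chrnb4 is −0.01.

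Chrna3, the alpha subunit that joins Chrnb4, was near-constant, with all 10 values between 6.12558 and 6.12630. The difference between the groups was −0.0001505 (exact permutation p = 0.2698). P2 had the highest value, 0.0004565 above the next rat, which is most of the range of 0.0007192. This was the same rat as for Chrnb4. On the log2 scale the step in P2 was 0.000597 above the mean of the others for Chrna3 and 0.75 for Chrnb4, and qFARMS sets how far a probe set is flattened, so the sizes cannot be compared.

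The subunits of the main hippocampal receptors were near-constant, so whether their mRNA differed between the groups could not be measured. Chrna7, which forms the alpha7 receptor, lay between 6.81275 and 6.81372, with a difference of 0.0001479 (exact permutation p = 0.4841). Chrna4 lay between 6.42979 and 6.43019, with a difference of 1.206e-05 (exact permutation p = 0.8889). Chrnb2, the partner of Chrna4, differed by −0.0001616, with an exact permutation p of 0.04762 before any adjustment and a limma adjusted p of 0.9266. Chrnb3, an accessory subunit of habenular and dopaminergic neurons, differed by 3.649e-05 (exact permutation p = 0.5873). The groups overlapped for each of these 4 subunits. All 4 differences were below 0.001 log2 units, as values this near-constant fix in advance.

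Between Chrna5 and Chrnb4, which lie close together on the chromosome, no relation over the rats was detected. Over the 10 rats Pearson's r was −0.10 (permutation p = 0.7027) and Spearman's rho was 0.13 (permutation p = 0.733). Without C4 and P5, the rats farthest from the median of Chrna5, r was −0.06 (exact permutation p = 0.8891). No other pair of members could be compared in this way, because 1 of its genes at least was near-constant. The rats with extreme values were also different ones: P5 and C4 for Chrna5, P2 for Chrnb4.

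Chrnb4 and Pde6g were highest in the same rat. Pde6g was 7.11, 7.14, 6.99, 6.80 and 6.89 in C1 to C5, and 7.13, 10.87, 6.91, 6.78 and 7.15 in P1 to P5. P2 was far above the other 9 rats, which differed little and overlapped between the groups. For Chrnb4 and Pde6g, r was 0.95 over 10 rats (permutation p = 0.00499, adjusted p = 0.03992 over 8 relations) and rho was 0.85 (permutation p = 0.00277, adjusted p = 0.02216). Without P2 and P4, the rats farthest from the median of Pde6g, r was 0.39 (exact permutation p = 0.3383) and rho was 0.71 (exact permutation p = 0.05759). Without P2 alone r was 0.60 (exact permutation p = 0.09226), while rho was 0.80 (exact permutation p = 0.01383, unadjusted). The size of r thus rested on P2, whereas the rank order of the other 9 rats was still similar in both genes. That similarity was not particular to Chrnb4. Without P2, r with Pde6g ran from −0.42 (Chrna5) to 0.97 (Chrnd) over the 17 nicotinic probe sets. Near-constant subunits such as Chrna1 (0.84) lay above Chrnb4, and others such as Chrne (−0.09) lay below it. Pde6g was picked for this comparison with earlier results known, and Chrnb4 was among 44 of 2903 variable probe sets (1.52%) with an r of that size or higher. With each group centred on its own mean, r was 0.95.

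No such relation was found for Chrna5. With Pde6g its r was −0.13 (permutation p = 0.4604, adjusted p = 0.818) and its rho −0.30 (permutation p = 0.407), and without P2 and P4 its r was −0.55 (exact permutation p = 0.1501). In P2 Chrna5 was 6.72, within the range of the other P-group rats. Among the near-constant subunits, read after the data were seen and as a description, Chrna3 had an r of 0.95 with Pde6g and of 0.55 without P2. It was among 8 of 28138 near-constant probe sets (0.0284%) with an r of that size or higher, while 6.87% of near-constant probe sets were highest in P2. The r of Chrna4, Chrna7, Chrnb2 and Chrnb3 with Pde6g lay between −0.51 and 0.19. Without P2 it was 0.80 for Chrna7, 0.37 for Chrnb2, 0.32 for Chrna4 and 0.03 for Chrnb3, so that in the remaining 9 rats Chrna7 lay above both Chrna3 and Chrnb4. Of the 17 nicotinic probe sets, 2 had their highest value in P2, those of Chrnb4 and Chrna3.

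**Figure D4:**
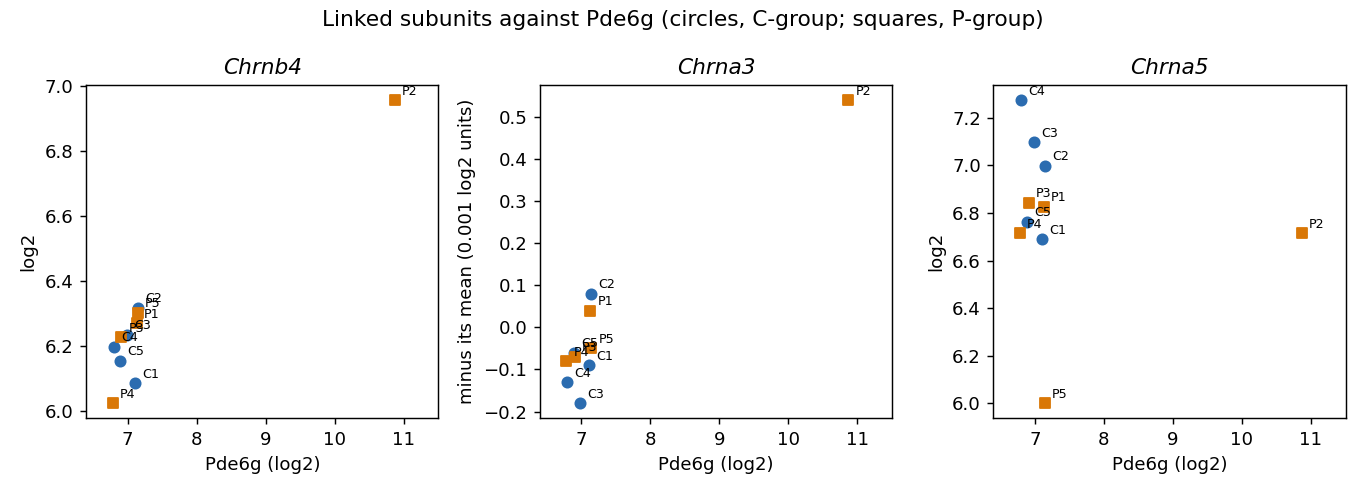
Values of Chrnb4 and Chrna5 (log2) and of Chrna3 (thousandths of a log2 unit around its mean) in each rat against Pde6g (log2). P2, at 10.87 for Pde6g, is highest for Chrnb4 and Chrna3 and within the other rats for Chrna5.

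The medial habenula, which lies beside the pineal stalk, is also rich in linked subunits. The mean of its 4 variable listed genes was not extreme in P2, although these genes differed there. Of 11 listed genes, 7 were measured and 4 varied: Tac1 and Tac3, which encode tachykinins, Slc5a7, the choline transporter, and Slc17a6, a vesicular glutamate transporter. Its defining Pou4f1, Chat and Slc18a3 were near-constant. The list mean was 7.58 in P2, within the 7.30 to 7.68 of the C-group. Slc17a6 was highest of all rats in P2 (8.84, 0.16 above the next), whereas Tac1 was 6.69 there, below its mean in either group (6.96 and 6.99). Whether habenular tissue was in the P2 sample cannot be read from this mean and was not tested. The r of the list mean was 0.13 with Chrnb4 (permutation p = 0.639, adjusted p = 0.818) and −0.07 with Chrna5 (permutation p = 0.818, adjusted p = 0.818). For the thalamus list, r was 0.10 with Chrnb4 (permutation p = 0.8022) and −0.27 with Chrna5 (permutation p = 0.4756), both with an adjusted p of 0.818. Spearman's rho of these 4 relations lay between −0.26 and 0.08 (adjusted permutation p from 0.7491 to 0.8377). Without the 2 rats farthest from the median of each list, r lay between −0.44 and 0.02. For the choroid plexus no pooled correlation is given, since its list mean parted the rats into a high and a low set of fewer than 6 rats each, and the relation could not be tested within them. These relations count among the 8 adjusted for.

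The 5 genes most like Chrna5 over the 10 rats, by Pearson's r among variable probe sets of 1 gene, were Bcl11b (0.91), Nos1ap (0.86), Kcnd2 (0.81), Camk2n1 (0.80) and Anks1b (0.79). Bcl11b encodes a zinc finger transcription factor of forebrain neurons, Nos1ap an adaptor of neuronal nitric oxide synthase, Kcnd2 an A-type potassium channel, Camk2n1 an inhibitor of CaM kinase II, and Anks1b a postsynaptic scaffold protein. Bcl11b was 7.22, 7.36, 7.59, 7.65 and 7.22 in C1 to C5 and 7.31, 7.32, 7.42, 7.33 and 7.03 in P1 to P5. Like Chrna5 it was highest in C4 and lowest in P5, and without P5 its r with Chrna5 was 0.90. The other 2 probe sets of Bcl11b had an r of 0.88 and 0.21 with Chrna5. Another probe set of Nos1ap had an r of 0.66, and another of Kcnd2 0.78. Those of Camk2n1 (−0.05) and Anks1b (0.08 and 0.03) were near-constant. The Kcnd2 probe set named above had an SD of 0.01208, only just above the 0.01 that counts as variable. All 5 genes were lowest in P5, as were 15.3% of the variable probe sets. They were chosen by likeness to Chrna5, itself lowest in P5, so their count cannot be set against that share. Without P5, r was 0.70 for Nos1ap, 0.80 for Kcnd2, 0.48 for Camk2n1 and 0.66 for Anks1b. Rank products called Nos1ap (difference 0.28, SE 0.15, FDR = 0.01142) and Camk2n1 (difference 0.21, SE 0.15, FDR = 0.02599) higher in the C-group, like Chrna5, but not Bcl11b (difference 0.13, SE 0.11, FDR = 0.06845), Kcnd2 or Anks1b. Limma passed none of the 5 (adjusted p from 0.9266 to 0.9388).

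The 5 genes most like Chrnb4 were Pde6g (r = 0.95), Prph2 (0.95), Tulp1 (0.95), Miox (0.94) and Pdc (0.94). Prph2 encodes a protein of the rims of photoreceptor discs, Tulp1 a protein of photoreceptor trafficking, Pdc phosducin, which binds G protein subunits in photoreceptors and pinealocytes, and Miox the oxygenase of myo-inositol. Pdc was 8.82 in P2 and 5.53 to 5.67 in the 9 other rats. All 5 were highest in P2, as were 6.75% of the variable probe sets. The 5 were chosen by likeness to Chrnb4, itself highest in P2, so their count cannot be set against that share. Without P2 the r of Prph2, Tulp1, Miox and Pdc with Chrnb4 was 0.41 to 0.49. Rank products called Pde6g (difference −0.78, SE 0.76, FDR = 0.01229) and Pdc (difference −0.69, SE 0.61, FDR = 0.002857) lower in the C-group, and limma passed none of the 5. Promoter windows were held for 4 of these 5 genes. A GC box was in 0 of the 4 (30.5% of all windows) and the TAATCC core in 1, that of Prph2 (6.34% of all), counts too small to set against those shares, and the Pdc window lay wholly inside its gene. Of the genes most like Chrna5, Kcnd2 held 0 GC boxes and Anks1b 3, and neither held the TAATCC core.

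**Figure D5:**
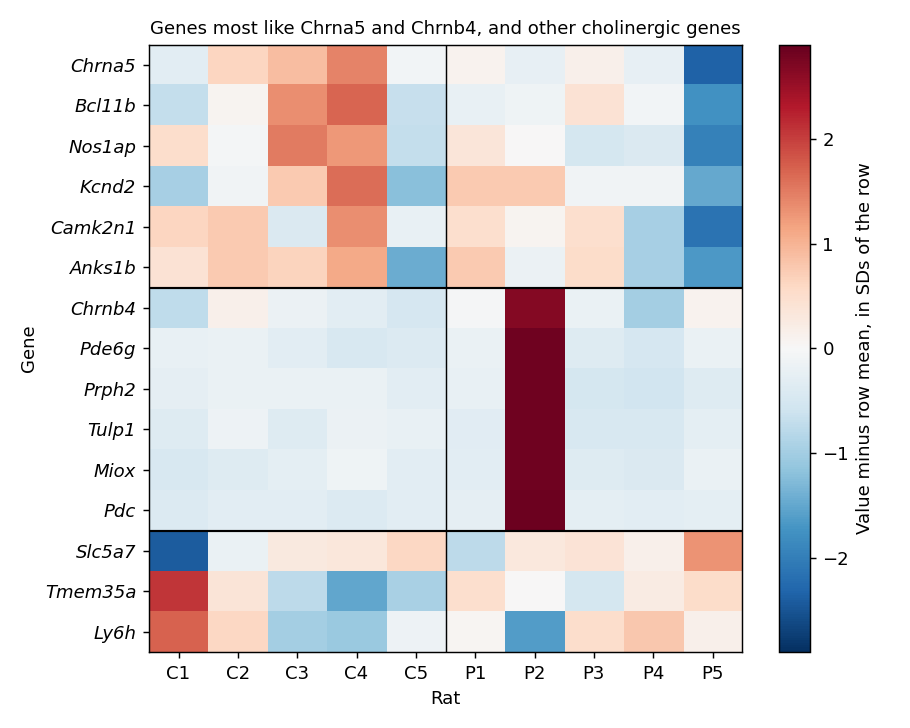
Values of Chrna5 and Chrnb4, of the 5 genes most like each, and of 3 other cholinergic genes in each rat, as the distance from the mean of the row in SDs (red, above; blue, below). P5 is the lowest rat throughout the top block and P2 the highest throughout the middle block.

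In the rest of the cholinergic system few genes varied, as over the whole array. The lists held 36 genes: other cholinergic genes and genes of chromosome 8 listed as neighbors of the linked subunits. Of these, 31 were measured and 3 varied, against 9.36% of all probe sets. Rank products called 0 of them higher and 0 lower, against 2.0% and 0.416% of all probe sets. Limma called 0, against 0%. These counts are too small to set against those shares. The 5 muscarinic receptors, which signal through G proteins, were near-constant. So were the 3 listed genes on the Chrna5 side of the linked subunits, Ireb2, an iron regulatory protein, Hykk, a kinase of hydroxylysine, and Psma4, a proteasome subunit. Ube2q2 and Fbxo22, on the Chrnb4 side, were not in the list. Adamts7, a metalloprotease, Morf4l1, a chromatin protein, and Ctsh, a cathepsin, had been listed as neighbors too, but in GRCr8 they lie elsewhere on chromosome 8, and they were near-constant as well.

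Slc5a7, which takes up choline for the synthesis of acetylcholine, was 6.16, 7.06, 7.25, 7.28 and 7.38 in C1 to C5 and 6.84, 7.26, 7.30, 7.20 and 7.67 in P1 to P5. C1 was far below the other rats, and the groups overlapped. The difference was −0.23 (SE 0.25, exact permutation p = 0.4603), and without C1 it was −0.01. Rank products called it lower in 1 of the 10 sets that leave out a rat (without C5, difference −0.32, FDR = 0.03547). Tmem35a, known as the chaperone NACHO that alpha7 receptors need for assembly, was 10.51, 10.08, 9.80, 9.61 and 9.75 in C1 to C5 and 10.11, 9.99, 9.86, 10.05 and 10.12 in P1 to P5. The C-group spread to both sides of the P-group, and the difference was −0.08 (SE 0.16, exact permutation p = 0.6667), with an FDR of 0.05228 for lower by rank products. It was called lower in 2 of the 10 sets, without C1 (difference −0.22, FDR = 0.008246) and without C2 (difference −0.11, FDR = 0.02356). Ly6h, a membrane-anchored protein that holds back alpha7 receptors, was 10.66, 10.54, 10.37, 10.36 and 10.46 in C1 to C5 and 10.48, 10.30, 10.53, 10.56 and 10.49 in P1 to P5, groups that overlapped. Its difference was 0.01 (SE 0.07, exact permutation p = 0.9127).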

How the data were processed

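Total RNA of the hippocampus was extracted by the authors, 100 ng per sample was labeled, and Affymetrix rat genome arrays were normalized and summarized with qFARMS in R 2.7.2. The authors deposited these as log2 values, which were used as they stand. Probe sets whose probes do not vary together come out of qFARMS nearly flat. The 57 control probe sets of 31099 were left out. Symbols came from the platform annotation (20758 identifiers were found in RefSeq GRCr8, with 0 other symbols).

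Rank products (25 differences between groups, 100 permutations within arrays, FDR threshold 0.05 in each direction) was computed with numpy 2.4.6, scipy 1.17.1 and pandas 2.3.3 (Python 3.11.15), and limma 3.58.1 was run in R 4.3.3 with Benjamini-Hochberg adjustment over 31042 probe sets. Both were run on simulated data with seeded changes in variable probe sets, all larger than the difference of any member. That run does not bear on changes as small as those of the members. Single differences were tested by exact permutation, and correlations over the 10 rats with 100000 resamples. Probe sets with an SD above 0.01 are called variable, and list means use these. Genes named are the members, Pde6g, the variable cholinergic genes and the 5 genes most like each variable member. The members and lists were chosen with earlier results of these data known. Arrays give no read depth, and 5 rats per group limit the precision. Alternatives changed the pairing, the normalization, the filter, the variance model and the rats used.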

Additional observations from a re-analysis of the deposited data

Results flagged for a closer look

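Within each group of 5 rats, a value was marked when the gap between the most extreme rat and its nearest neighbor, divided by the range of the group, exceeded 0.71. Of 40 groups examined over 20 genes, 8 were marked, and chance alone marks about 1 in 20 groups. The count is no sign of an excess, because 5 of the 8 are P2 in genes chosen for their likeness to Chrnb4, which was highest in P2. In the P-group, Chrna5 was marked for P5, the lowest rat, with a ratio of 0.848. P2 was the highest rat in 6 of the marked groups. Its ratio was 0.796 for Chrna3, where the whole range is under 0.001 log2 units, and 0.911 for Pde6g, 0.896 for Prph2, 0.942 for Tulp1, 0.931 for Miox and 0.988 for Pdc. Chrnb4 in P2 was not marked. In the C-group, Slc5a7 was marked for C1, the lowest rat, with a ratio of 0.738. The sources of these values were not tested.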

How the results depend on the processing

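Rank products made 748 calls over all probe sets, and 9 among those with an SD above 0.01, 195 without the dimmer probe sets, and 222 to 871 with 1 rat left out (222 to 421 without C1, C2, C4, P4 or P5). With the replicate number as a block (replicate block) there were 1248 calls. The numbers were not taken to pair the rats in the main run, because the labels do not say that they do. Same-numbered rats correlated by −0.39 to 0.48, and 3 of 5 pairs exceeded 0.1. Yet 5 of 10 rats correlated best with their own number. These values were mixed, and whether the numbers mark a shared factor was not tested. With the block Chrna5 kept its call, and Slc5a7 and Tmem35a passed as lower. The difference of Chrna5 (0.3444) lost its call among the probe sets with an SD above 0.01, and ran from 0.1896 to 0.4131 with 1 rat left out. Chrna5 and Chrnb4 lie among the dimmer probe sets, so that filter gave them no value.

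Centring arrays on the median moved every difference by −0.006234, which by itself turned the sign of values this near 0: they were −0.006222 for Chrna4, −0.006086 for Chrna7 and −0.006197 for Chrnb3, and after quantile normalization −0.00115, −0.003147 and −0.0006579. With 1 rat left out they ran from −2.845e-05 to 7.336e-05 for Chrna4 and from −1.021e-05 to 8.861e-05 for Chrnb3, and from −0.2161 to 0.007931 for Tmem35a and −0.03784 to 0.03903 for Ly6h. The r of Chrnb4 with Pde6g fell to 0.3916 without P2 and P4 and ran from 0.598 to 0.9675 with 1 rat left out, and that of Chrna3 was 0.547 without P2. With groups centred, r was 0.06645 for Chrna5 with Pde6g and 0.0987 for Chrna5 with Chrnb4. Limma made 0 calls in every alternative run. Each member has 1 probe set, so another choice of probe set was not possible. Apart from the construction of the filters, the causes were not tested. The near-constant probe sets and the number of rats limit what can be measured.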
